A study of Mus musculus with 24 samples.

Results

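The genes of the Mediator complex were followed in single mouse cells through the first hours after fertilization. Members were the genes whose symbol in the platform annotation was Med followed by a number, with or without a final l, together with Cdk8, Cdk19 and Ccnc, and the probe with the highest mean over all arrays stood for each gene. This gave 33 genes of 19532 measured, read from 65 probes, and 19 of the 33 genes had more than 1 probe. The groups were 1-cell embryos obtained by ICSI (intracytoplasmic sperm injection), in which a sperm is injected into the oocyte, and unfertilized oocytes at metaphase II (MII), labelled 0 h. Embryos were collected every 2 h up to 12 h after injection, with 3 cells each at 2, 6 and 8 h and 4 cells each at 4, 10 and 12 h. This makes 21 embryos, against 3 oocytes. The labels gave all cells the hybrid strain B6D2F1 and named no genetic change, and the sperm came from males aged 8 to 12 weeks. Each cell had its own array, and no label tied a cell to an animal, so a p-value here measures only how far these cells spread.

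Mediator is a large assembly that sits between transcription factors bound to enhancers and promoters and RNA polymerase II, and it helps the polymerase and its general factors to assemble and start transcription. Its core has a head, which contacts the polymerase, a middle, and a tail that receives most of the activators, all held by the scaffold subunit Med14. A separate kinase module, built on the cyclin-dependent kinases Cdk8 or Cdk19, can dock on the core and block its contact with the polymerase. In the mouse the oocyte stops transcribing before it matures and the embryo starts again during the 1-cell stage. The mRNA seen in the first hours is thus largely inherited from the oocyte.

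Levels are given as log2 intensity, which was worked out from the scores that were deposited. Their background lay at 6.83, and a value was taken as above background from 7.83, which is 1 log2 unit higher. Background was not subtracted, so changes of genes near it are understated, and the probes bind with different strength, so the level of one gene was never set against that of another. The distributions of all arrays had been made alike, so that a change shared by most genes would not show. Because mRNA was caught on oligo-dT beads, loss of an mRNA and loss of its poly(A) tail cannot be told apart. A gene counted as called when its p, adjusted by the Benjamini-Hochberg method, was under 0.05 in a limma fit of all 24 arrays and all 19532 genes. The comparisons with 0 h share the same 3 oocytes.

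Most Mediator mRNAs were present in the oocyte and stayed detectable through the 1-cell stage. In all, 22 of the 33 members were above the background threshold on all 24 arrays, against 5115 of the 19532 genes, and 29 members were above it in all 3 oocytes, against 8512 genes. A single embryo had between 27 and 32 members above the threshold, and a single oocyte had 29 to 31. The members below the threshold on some arrays were Med6, Med7, Med9, Med11, Med12l, Med16, Med17, Med18, Med24, Med29 and Cdk19. Med16 and Med29 were above it in 2 embryos each and in 0 oocytes, so these probes gave almost no reading. The other 22 members, above the threshold on every array, included 3 of 7 in the head, 3 of 4 among Med27 to Med30, which different structures place in the head or the tail, 7 of 9 in the middle, the scaffold Med14, 3 of 5 in the tail and 5 of 7 in the kinase module.

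Med11, a small head subunit that pairs with Med22 at the base of the head, was the only member called in any of the 9 tests. At 0 h its log2 intensity was 12.52, 12.32 and 12.45 in the oocytes. At 2 h it was 10.38, 6.95 and 12.14, and at 4 h it was 11.90, 9.86, 9.85 and 7.51. The 3 oocytes lay close together, while the embryos of these first hours spread from close to the oocytes down to background. At 6 h the values were 10.23, 7.23 and 10.97, and at 8 h they were 9.86, 9.57 and 12.53. At 10 h they were 6.86, 8.77, 6.90 and 6.90, and at 12 h they were 10.40, 6.95, 7.34 and 7.08. In each of the last groups 3 of 4 embryos were at background and 1 was above it. Of the 21 embryos 20 lay below every oocyte, and 12 were above the background threshold.

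At 10 h Med11 fell by 5.07 (SE 1.19, adjusted p = 0.048, 95% interval -7.53 to -2.61), with a mean of 7.36 ± 0.94 in embryos (SD, n = 4) and 12.43 ± 0.10 in oocytes (SD, n = 3). All 4 embryos were below all 3 oocytes, which was also so for 7.09% of all genes. Med11 was 1 of 33 members called at 10 h, while 0.707% of all genes were called, 0.573% as lower. At 12 h the change was -4.49 (SE 1.19, adjusted p = 0.061), and over all embryo times it was -3.25 (SE 0.96, adjusted p = 0.131). With 3 of 4 embryos at background at both times, the size of these changes is understated. The call at 10 h stood close to its threshold. It was lost, with an adjusted p of 0.182, 0.152 and 0.156 without oocytes a, c and d, and of 0.118, 0.0622, 0.12 and 0.0913 without 10 h embryos a, b, c and d. It was also lost, with an adjusted p of 0.0518 to 0.0587, without 2 h embryo a, 4 h embryo b or c, 6 h embryo a or d, 8 h embryo a or c, or 12 h embryo b, c or d. Only 1 probe reads Med11, so no second probe was available to set beside it.

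**Figure D1:**
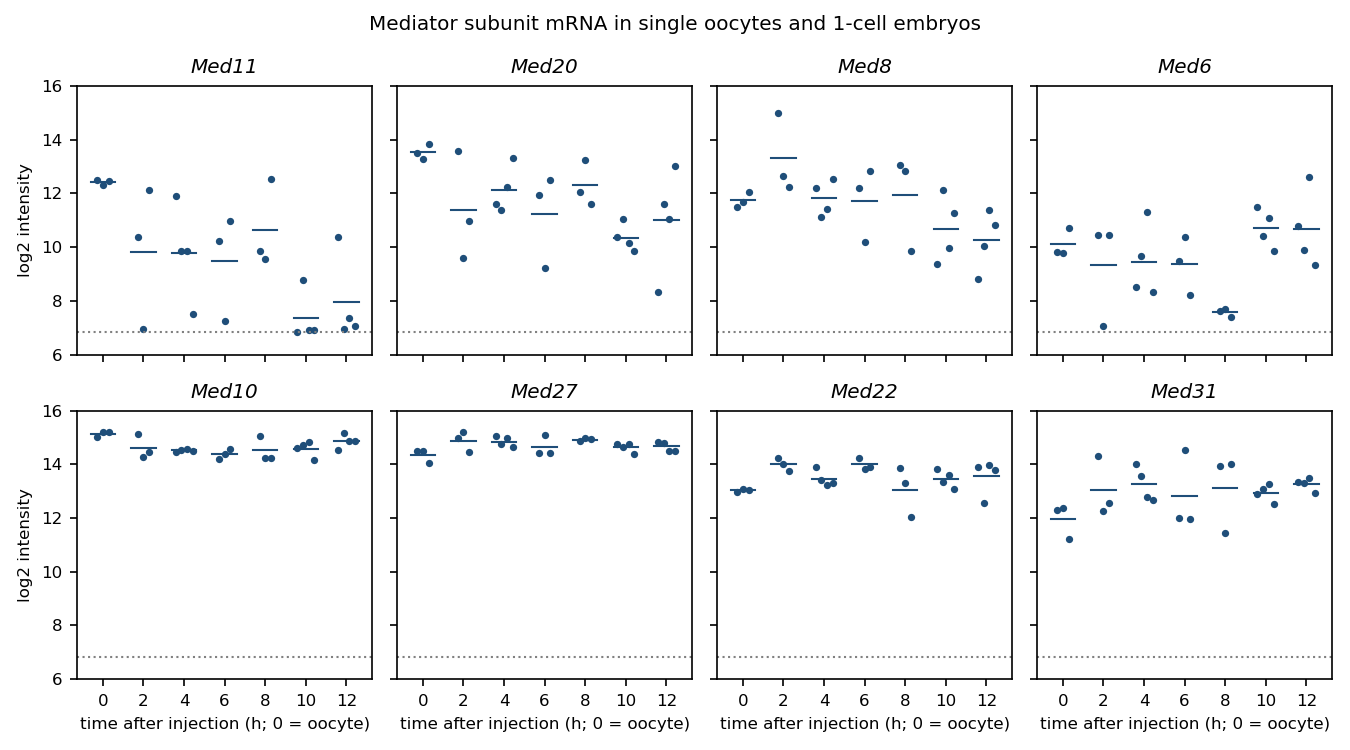
Log2 intensity of 8 Mediator genes (vertical axis) against hours after sperm injection (horizontal axis, 0 h being oocytes); each dot is 1 cell, each bar a group mean, and the dotted line the background at 6.83. For Med11, 3 of 4 embryos lie at 6.86 to 6.90 at 10 h and at 6.95 to 7.34 at 12 h, against 12.32 to 12.52 in the oocytes; Med10 and Med27 stay above 14 on every array.

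Med20, a subunit of the movable part of the head, had the second largest difference, which did not pass the test. Its values were 13.50, 13.27 and 13.83 in the oocytes at 0 h. They were 13.57, 9.60 and 10.97 at 2 h and 11.59, 11.38, 12.23 and 13.34 at 4 h. These early embryos overlapped the oocytes at both times. The values were 11.95, 9.21 and 12.48 at 6 h and 12.07, 13.25 and 11.59 at 8 h. The 10 h embryos had 10.39, 11.04, 10.14 and 9.84, and the 12 h embryos had 8.33, 11.61, 11.05 and 13.01. From 6 h on all embryos lay below all oocytes, which makes 19 of 21 embryos with those of the earlier times, and none was at background. Taken time by time, all embryos were below all oocytes for 9.35%, 10.7%, 7.09% and 7.24% of all genes at 6, 8, 10 and 12 h. The change was -3.18 at 10 h (SE 0.95, adjusted p = 0.15) and -2.14 over all embryo times (SE 0.77, adjusted p = 0.255). A second bright Med20 probe differed from the first by at most 0.66 on any array, and its changes were -3.30 and -2.17 for the same comparisons (adjusted p = 0.177 and 0.308 over all 41174 probes).

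Because Med11 and Med20 had the largest differences from the oocytes over all embryo times, the start regions of both genes are shown. Each is 300 bases from RefSeq on GRCm38.p6, on the plus strand, with 250 bases before the annotated start and 50 from it onwards; capitals mark a motif match. Med11 lies at chr11:70451918-70453732 and its window at chr11:70451668-70451967. Med20 lies at chr17:47611585-47624251 and its window at chr17:47611335-47611634.
Med11: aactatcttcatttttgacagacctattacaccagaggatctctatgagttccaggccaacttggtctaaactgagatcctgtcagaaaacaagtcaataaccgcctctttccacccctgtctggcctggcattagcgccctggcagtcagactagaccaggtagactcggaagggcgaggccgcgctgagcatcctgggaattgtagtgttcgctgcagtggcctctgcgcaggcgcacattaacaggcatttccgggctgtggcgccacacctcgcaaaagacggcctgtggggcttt
Med20: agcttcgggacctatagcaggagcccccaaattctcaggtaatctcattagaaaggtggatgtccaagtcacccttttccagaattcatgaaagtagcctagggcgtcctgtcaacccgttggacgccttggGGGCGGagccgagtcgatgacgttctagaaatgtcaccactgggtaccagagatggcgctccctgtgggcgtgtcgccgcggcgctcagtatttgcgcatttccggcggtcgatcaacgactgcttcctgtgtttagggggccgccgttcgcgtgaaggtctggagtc

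Both windows were searched on both strands for 4 motifs. The Med11 window held no match and 13 CG pairs. The Med20 window held 1 GC box, GGGCGG, at position 133 counted from the first base of the window, and 23 CG pairs. Windows were given for 28 of the 33 members, 32 windows in all, and are set here against all 32851 windows of the table. The GC box was in 62.5% of member windows and 35.7% of all windows, and the ETS core CCGGAAG was in 28.1% and 8.86%. The CCAAT box (letters CCAAT) was in 37.5% and 37.4%, and the TATA box (letters TATAAA) in 9.38% and 13.6%. Member windows had a median of 20 CG pairs and all windows a median of 7. These are counts of letters and not of bound factors.

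In the rest of the head no member was called. Med6, which joins the head to the middle, had values of 7.60, 7.69 and 7.41 at 8 h, none of them well above background, against 9.82, 9.77 and 10.73 in oocytes. With the embryos counted at the threshold, the 8 h mean of Med6 was at least 4.85-fold below the oocyte mean. That bound allows for dim readings only and not for the spread between cells. The fitted change of Med6 at 8 h was -2.54 (SE 0.94, adjusted p = 0.215). Its 95% interval before adjustment was -4.49 to -0.59, so smaller changes than that bound were not excluded. At 10 h its values were 11.48, 10.42, 11.08 and 9.86, and at 12 h they were 10.80, 9.89, 12.63 and 9.34. The low values were thus not shared by the embryos of the following hours. The values at 2 h were 10.46, 7.08 and 10.45, at 4 h 8.51, 9.65, 11.33 and 8.32, and at 6 h 9.49, 10.37 and 8.20. In the F-test over all 7 times Med6 had an adjusted p of 0.282 and Med11 one of 0.164.

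Med8, a head subunit that also binds elongin, had the smallest unadjusted p between late and early embryos of any member, 0.001739, and was not called. Its values were 9.36, 12.13, 9.97 and 11.27 at 10 h and 8.83, 10.04, 11.36 and 10.83 at 12 h. The early embryos had 15.01, 12.66 and 12.25 at 2 h and 12.22, 11.14, 11.40 and 12.54 at 4 h. The late and early groups overlapped. The change of late against early embryos, here the mean of 10 h and 12 h minus the mean of 2 h and 4 h, was -2.09 (SE 0.59, adjusted p = 0.112), while that of Med11 was -2.15 with a wider error (SE 0.81, adjusted p = 0.260). The oocytes had 11.49, 11.68 and 12.07, close to the mean of all embryos, and the change over all embryo times was -0.13 (SE 0.70). Among all genes 0.763% were called between late and early embryos, and 0 of 33 members were. An unadjusted p under 0.05 was found for 5 members (15.2%) and 2430 of all genes (12.4%).

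Med17, Med18 and Med22 complete the head. Med17, around which the head is built, had the widest spread between embryos of any member, with a pooled SD of 2.11 within times; its embryos ran from 6.66 to 13.10 with a median of 11.21, against 12.11 to 12.94 in oocytes. Its change over all embryo times was -1.57 (SE 1.12, adjusted p = 0.657). Med18, the partner of Med20, ran from 6.90 to 12.95 in embryos and from 7.69 to 8.93 in oocytes, with a change of 0.58 (95% interval -1.50 to 2.66). A second Med18 probe, above the threshold on 7 arrays, pointed the other way, with a change of -0.93 (SE 0.30, adjusted p = 0.207 over all 41174 probes) and 19 of 21 embryos below every oocyte. Med22 ran from 12.03 to 14.25 in embryos, with 19 of 21 above every oocyte, against 12.98, 13.07 and 13.06 in the oocytes, with a change of 0.55 (SE 0.29, adjusted p = 0.518). Its 2 lower embryos were 1 at 8 h, with 12.03, and 1 at 12 h, with 12.57. A second bright Med22 probe had a change of -0.22 (SE 0.57), so the direction was not shared by both probes. Within the head, 5 of 7 members had changes below 0 over all embryo times and the median was -0.59, with a range of -3.25 to 0.58.

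**Figure D2:**
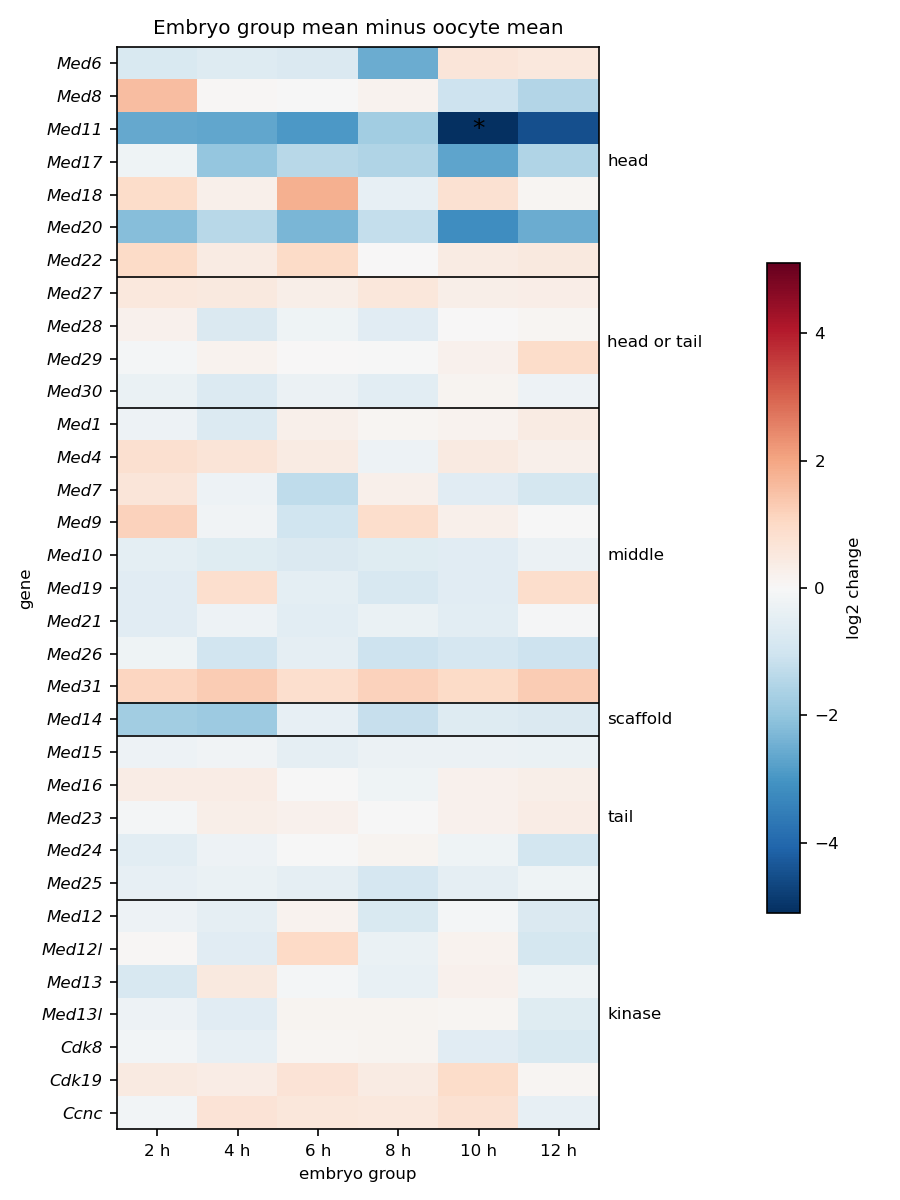
Change in log2 intensity of 33 Mediator genes (rows, grouped by module) at each embryo time (columns) against the oocytes; blue is lower and red higher in embryos, and the star marks an adjusted p under 0.05. The star stands at Med11 at 10 h, and the darkest cells are those of Med11 at 10 h and 12 h, with changes of -5.07 and -4.49.

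Among Med27 to Med30, the subunits placed in the head or the tail, no member was called. Med27 was bright and even. Its values were 14.39 to 15.21 in embryos, against 14.05 to 14.49 in oocytes, and 17 of 21 embryos lay above every oocyte while none lay below all. Group means were 14.87 ± 0.39, 14.84 ± 0.19, 14.64 ± 0.40, 14.92 ± 0.05, 14.64 ± 0.18 and 14.66 ± 0.18 in embryos at 2, 4, 6, 8, 10 and 12 h, against 14.34 ± 0.25 in oocytes (SD, n = 3 or 4). The change over all embryo times was 0.42 (SE 0.16, adjusted p = 0.279). A second Med27 probe, also bright on every array, had a change of -0.07 (SE 0.39) and lay above all oocytes in 7 embryos and below all in 7. Med29, the counterpart of the fly protein Intersex, was close to background in all groups, and its mean reached 7.73 ± 0.69 at 12 h, against 6.79 ± 0.30 in oocytes, with a change of 0.94 (SE 0.36, adjusted p = 0.235). Med28 and Med30 had changes of -0.20 (SE 0.43) and -0.34 (SE 0.31) over all embryo times.

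In the middle, 0 of 9 members were called. Med10, a core middle subunit, had values of 14.15 to 15.17 in embryos, against 15.02 to 15.20 in oocytes, and 18 of 21 embryos lay below every oocyte. Its group means were 14.62 ± 0.45, 14.52 ± 0.04, 14.38 ± 0.20, 14.52 ± 0.48, 14.58 ± 0.30 and 14.85 ± 0.27 in embryos at 2, 4, 6, 8, 10 and 12 h, against 15.14 ± 0.10 in oocytes. The change was small and even, -0.56 over all embryo times (SE 0.18, adjusted p = 0.169). Med31, a small middle subunit conserved from yeast, had a change above 0, with values of 11.45 to 14.52 in embryos, against 11.23 to 12.38 in oocytes, and 17 of 21 embryos above every oocyte. Its change was 1.11 (SE 0.51, adjusted p = 0.438). Neither Med10 nor Med31 has a second probe.

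Med19, another middle subunit, had group means of 9.38 ± 0.83, 10.80 ± 0.71, 9.45 ± 1.10, 9.15 ± 0.63, 9.39 ± 0.90 and 10.84 ± 0.69 in embryos at 2, 4, 6, 8, 10 and 12 h, against 9.96 ± 0.99 in oocytes, with no steady course and an adjusted p of 0.362 in the F-test. Med1, the subunit that binds nuclear receptors, had a change of 0.01 over all embryo times (SE 0.41) and one of 0.77 between late and early embryos (SE 0.35, adjusted p = 0.363). Med26, which takes part in the hand-over to elongation, ran from 8.32 to 13.39 in embryos and from 11.84 to 11.96 in oocytes, and 17 of 21 embryos lay below all oocytes. Its change was -0.77 (SE 0.82, adjusted p = 0.768). Med7 and Med9 had pooled embryo SDs of 1.58 and 1.85 and changes of -0.35 (95% interval -2.14 to 1.45) and 0.19 (-1.88 to 2.26). Med4 and Med21 had changes of 0.39 (SE 0.44) and -0.38 (SE 0.28).

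The scaffold Med14, which runs through the core and holds its modules together, had group means of 9.28 ± 0.72, 9.21 ± 0.54, 10.65 ± 1.08, 9.87 ± 1.44, 10.39 ± 1.98 and 10.34 ± 1.41 in embryos at 2, 4, 6, 8, 10 and 12 h, against 11.06 ± 0.80 in oocytes. At 2 h and at 4 h every embryo lay below every oocyte, which was also so for 9.89% and 5.78% of all genes. The change was -1.77 at 2 h (SE 0.99, adjusted p = 0.624) and -1.85 at 4 h (SE 0.93, adjusted p = 0.557), and neither passed the test. The further Med14 probes, near background on most arrays, had changes above 0 at both times, none of them called.

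In the tail, 0 of 5 members were called. Med25, a tail subunit known as the target of the viral activator VP16, was below all oocytes in 18 of 21 embryos, with group means of 14.18 ± 0.23, 14.25 ± 0.51, 14.12 ± 0.33, 13.72 ± 0.64, 14.14 ± 0.51 and 14.35 ± 0.47 in embryos at 2, 4, 6, 8, 10 and 12 h, against 14.59 ± 0.07 in oocytes. Its largest change was -0.87 at 8 h (SE 0.34, adjusted p = 0.257). Med15 and Med23, the tail subunits that receive SREBP and Elk1, had changes of -0.31 (SE 0.24) and 0.17 (SE 0.45) over all embryo times. Med24 ranged from 6.87 to 9.49 in embryos and from 6.87 to 10.00 in oocytes, and Med16 lay near background in all groups, with means of 7.07 to 7.68 in embryos against 7.30 in oocytes.

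The kinase module holds the 3 pairs of paralogs of the complex and cyclin C, encoded by Ccnc, and 0 of its 7 members were called. Changes over all embryo times lay between -0.36 and 0.50. Cdk8, the main kinase, had means of 12.99 ± 0.85, 12.71 ± 0.61, 13.21 ± 0.58, 13.26 ± 0.44, 12.55 ± 0.41 and 12.34 ± 0.67 in embryos at 2, 4, 6, 8, 10 and 12 h, against 13.13 ± 0.13 in oocytes. Its paralog Cdk19 had 8.53 ± 0.61, 8.43 ± 0.33, 8.77 ± 0.53, 8.50 ± 0.30, 9.03 ± 0.76 and 8.16 ± 0.36 in embryos at 2, 4, 6, 8, 10 and 12 h, against 8.07 ± 0.17 in oocytes. Over all embryo times the change of Cdk8 was -0.28 (SE 0.35, adjusted p = 0.792) and that of Cdk19 was 0.50 (SE 0.36, adjusted p = 0.662), and neither passed the test.

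Ccnc had the smallest F-test p of the module (adjusted p = 0.241), with means of 13.21 ± 1.08, 14.02 ± 0.27, 13.91 ± 0.42, 13.88 ± 0.39, 14.13 ± 0.49 and 12.92 ± 0.38 in embryos at 2, 4, 6, 8, 10 and 12 h, against 13.35 ± 0.37 in oocytes. Med12, which switches on the kinase, had a change of -0.36 over all embryo times (SE 0.40), and Med12l one of -0.10 (SE 0.69). Med13, the link between kinase and core, had a change of -0.13 (SE 0.73), and Med13l one of -0.19 (SE 0.44). The intervals of these 4 paralogs over all embryo times were -1.20 to 0.47 for Med12, -1.52 to 1.33 for Med12l, -1.65 to 1.38 for Med13 and -1.10 to 0.72 for Med13l, so that changes of more than 1 log2 unit were not excluded by the data for any of them.

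Probes of 1 gene often did not give the same picture. Of the 32 further probes of 19 members, 16 had a change over all embryo times of the opposite sign to the probe used. Among the 7 of them above the threshold on all 24 arrays, 5 did, those of Cdk8, Med13, Med19, Med22 and Med27. The second Med12 probe had values of 6.44 to 9.36 in embryos, against 7.91 to 9.14 in oocytes, and 19 of 21 embryos lay below every oocyte, with 2 embryos above the background threshold. Its change over all embryo times was -1.49 (SE 0.37, adjusted p = 0.0625 over all 41174 probes), against -0.36 for the brighter probe. The second Med13 probe, above background on all 24 arrays, lay above all oocytes in 21 of 21 embryos, with values of 9.95 to 11.12 in embryos and 9.40 to 9.69 in oocytes. Its change was 0.93 (SE 0.31, adjusted p = 0.216), against -0.13 for the brighter probe, and the test was not passed by either. Another Med13 probe had a change of -1.42 (SE 0.71, adjusted p = 0.551), with 13 of 21 embryos below every oocyte. For Cdk8 the further bright probe had a change of 0.69 (SE 0.46), against -0.28 for the probe used. Further probes of Med12l and Med25 had changes of -1.78 (SE 0.76, adjusted p = 0.428) and -2.13 (SE 0.90, adjusted p = 0.424), against -0.10 and -0.46 for the probes used. A further Med14 probe, above the threshold on 0 arrays, also had 21 of 21 embryos above all oocytes. Its values were 6.17 to 7.71 in embryos and 6.05 to 6.08 in oocytes. Embryos all above the oocytes were found for 0.430% of all probes. When each of the 41174 probes was tested as its own row, 0 member probes were called, while 0.102%, 0.0777%, 0.0534%, 0.695%, 0.444% and 0.998% of all probes were called from 2 h to 12 h, 0.765% over all embryo times and 0.515% between late and early embryos.

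**Figure D3:**
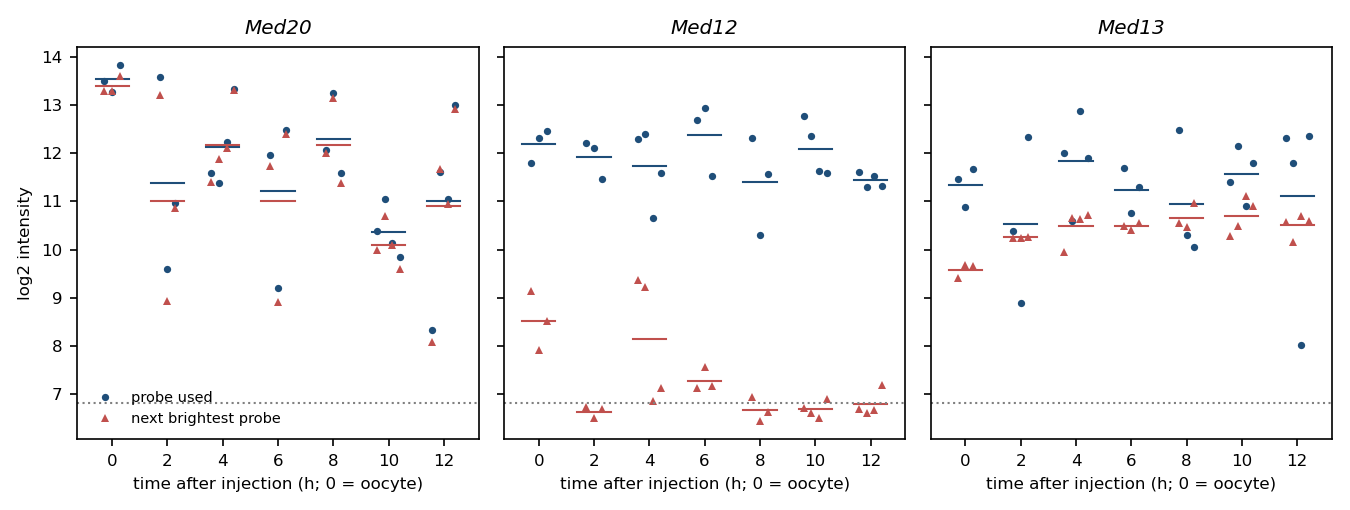
Log2 intensity (vertical axis) against hours after injection (horizontal axis, 0 h being oocytes) for the probe used (dots) and the next brightest probe (triangles) of Med20, Med12 and Med13; bars are group means and the dotted line is the background. Both Med20 probes follow each other within 0.66 on every array, while the second Med12 probe is near background in most embryos and the second Med13 probe is higher in all 21 embryos than in the oocytes.

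Few genes of any kind were called, and members were called in 1 of the 9 tests. At 2, 4, 6, 8 and 12 h 0 members were called, while 0.102%, 0.0666%, 0.148%, 0.845% and 1.46% of all genes were called at those times. For all embryo times against oocytes 0 members and 0.932% of genes were called, and in the F-test over the 7 times 0 members and 1.20% of genes. An unadjusted p under 0.05 was found over all embryo times for 5 members (15.2%) and 2066 of all genes (10.6%). In the F-test it was found for 4 members (12.1%) and 2954 of all genes (15.1%). By time the members with such a p numbered 4, 3, 4, 4, 4 and 3 at 2, 4, 6, 8, 10 and 12 h. As shares these were 12.1%, 9.09%, 12.1%, 12.1%, 12.1% and 9.09%, against 9.50%, 9.25%, 8.77%, 13.4%, 11.3% and 13.5% of all genes.

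The median change of the 33 members over all embryo times was -0.19, against 0.10 for all genes. Changes below 0 were found for 21 of the members and for 7939 of the 19532 genes. All genes are an unlike set here, since 29 of 33 members but only 8512 genes were above the threshold in all 3 oocytes. The difference between the medians was not tested. Between late and early embryos the medians were -0.08 and 0.03. For 28 of 33 members the change over all embryo times was under 1 log2 unit in size. The 95% interval lay wholly within 1 log2 unit of 0 for 9 members over all embryo times and for 15 between late and early embryos. The intervals of the other 24 and 18 members reached a change of that size, and 3 and 5 of them lay clear of 0 before adjustment. These were Med11, Med20 and Med31 over all embryo times and Med1, Med6, Med8, Med11 and Med29 between late and early embryos. The largest share of members whose embryos all lay to one side of the oocytes was at 6 h, when 7 members were lower, which is 21.2% of members, against 9.35% of all genes. They were Med10, Med11, Med15, Med17, Med20, Med25 and Med26. At 2, 4, 8, 10 and 12 h such lower members numbered 3, 3, 4, 4 and 5. As shares these were 9.09%, 9.09%, 12.1%, 12.1% and 15.2%, against 9.89%, 5.78%, 10.7%, 7.09% and 7.24% of all genes. Over all embryo times 0 members lay wholly above or wholly below the oocytes, as 0.543% and 0.579% of genes did. Members wholly higher numbered 2, 4, 2, 2, 2 and 3 from 2 h to 12 h. Their shares were 6.06%, 12.1%, 6.06%, 6.06%, 6.06% and 9.09%, against 8.22%, 8.54%, 10.5%, 14.2%, 8.31% and 12.0% of all genes.

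**Figure D4:**
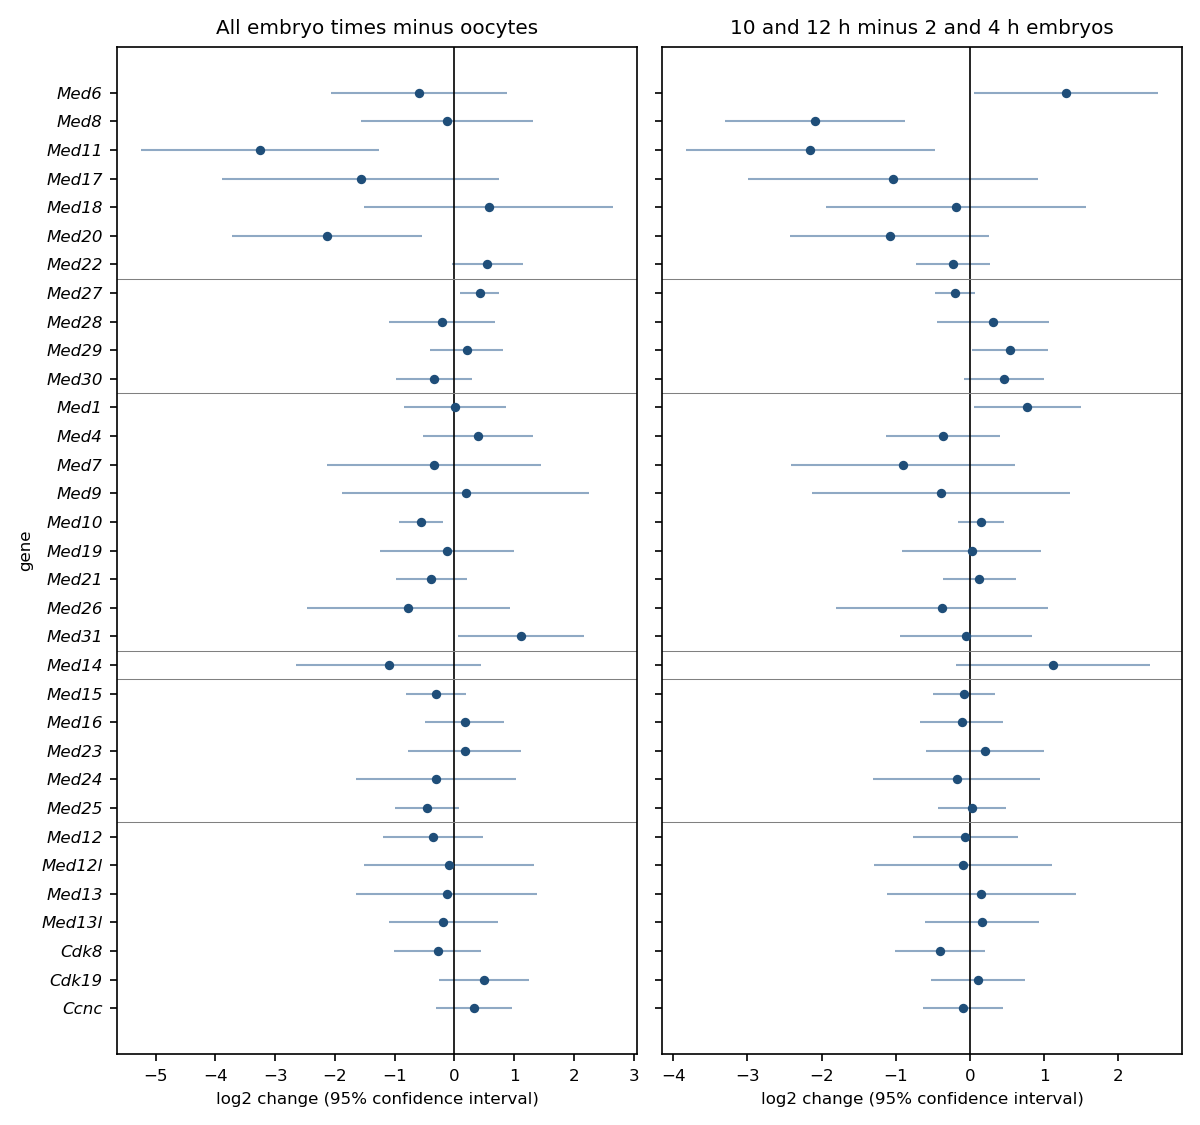
Log2 change with its 95% confidence interval (horizontal axis) for each of the 33 Mediator genes (rows), for all embryo times minus oocytes (left) and 10 h and 12 h embryos minus 2 h and 4 h embryos (right). The left interval of Med11 spans -5.25 to -1.26, and the right interval of Med8 spans -3.31 to -0.88, both before adjustment for the number of genes tested.

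Embryo arrays of one time differed from each other more than oocyte arrays did. The SD between embryos, pooled within the 6 times, exceeded the SD between the 3 oocytes for 30 of 33 members (90.9%), and for 84.75% of all genes. The exceptions were Med19, Med24 and Med27. The median embryo SD of members was 0.79, from 0.25 for Med27 to 2.11 for Med17, and that of all genes was 0.65. The median oocyte SD was 0.31 for members and 0.28 for all genes. An SD from 3 cells tends to come out low, so the pooled SD would exceed it for most genes even at equal spread. Over all genes, embryo arrays of one time correlated at 0.81 to 0.92 and oocyte arrays at 0.93 to 0.94. Embryo arrays held 5309 to 7531 distinct values and oocyte arrays 7580 to 7856, so this trait of the arrays followed the groups. Technical differences between arrays and differences between the cells cannot be told apart here, and their part in the spread was not tested.

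**Figure D5:**
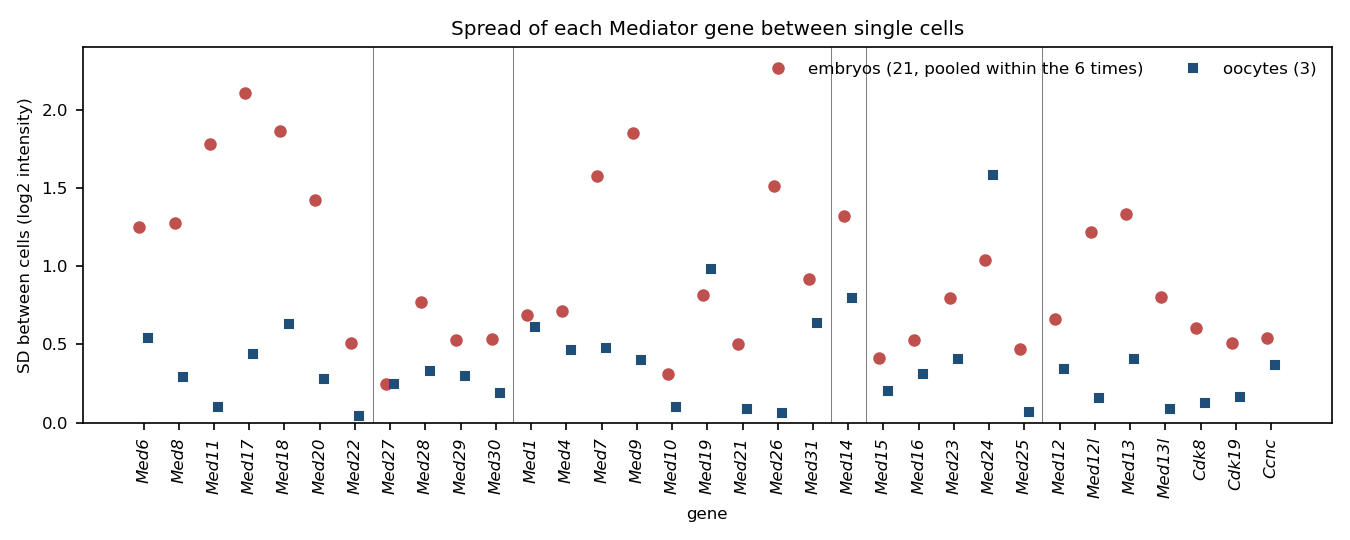
Standard deviation of log2 intensity between cells (vertical axis) for each Mediator gene (horizontal axis), for 21 embryos pooled within their 6 times (red circles) and 3 oocytes (blue squares). The embryo SD is the higher one for 30 of 33 genes, with Med17 at 2.11 and Med27 at 0.25 as the extremes.

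Genes for the machinery that works with Mediator were counted in the same way. Of 45 listed genes for RNA polymerase II and its general factors, 43 were measured and 0 were called in any of the 9 tests, where 0.0666% to 1.46% of all genes were called. Over all embryo times 9 of them, or 20.9%, had an unadjusted p under 0.05, as did 10.6% of all genes. This was the highest share of the list in the 9 tests. The lowest was 11.6% at 4 h, against 9.25% of all genes. The median change of these 43 genes over all embryo times was -0.09, with 23 of them below 0. Of 24 listed elongation factors and cofactors, 23 were measured and 1 was called. This was Eaf2, a partner of the elongation factor Ell, which was 1.77 higher in late than in early embryos (SE 0.39, adjusted p = 0.0297), a test in which 0.763% of all genes were called. The median change of that list over all embryo times was -0.33, with 18 of 23 genes below 0. In that comparison 1 of the 23, or 4.35%, had an unadjusted p under 0.05.

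The cells carried the marks of oocytes. All 12 listed oocyte markers were measured, and 12 of 12 were above the threshold on every array of the 0 h, 2 h, 4 h, 6 h and 10 h groups and 11 of 12 at 8 h and 12 h. Of 9 measured cumulus and granulosa cell markers, Has2 and Tnfaip6 were above the threshold on 0 arrays, Foxl2, Cd44, Inha, Ptgs2 and Fshr on 2 to 6, Ptx3 on 19 and Amh on all 24. Of the 7 measured blood markers, Hbb-bt was above the threshold on all 24 arrays, Lyz2 on 18, Cd52 on 12, and Alas2, Hba-a1, Ptprc and Hba-a2 on 2 to 6. Of 11 measured sperm and spermatid markers, Prm1, Tnp2, Odf2 and Gapdhs were above the threshold on all 24 arrays, oocytes included, and Prm2 on 23. The others were above it on few arrays, Tnp1 on 9, Akap4 and Oaz3 on 7 each, Plcz1 on 2, and Odf1 and Smcp on 1 each. The summed intensity above background of the sperm list ran from 14790 to 33860 in embryos and from 10280 to 15630 in oocytes. For the cumulus list the sums were 6466 to 12600 in embryos and 5616 to 5990 in oocytes, and for the blood list 8168 to 29160 in embryos and 8622 to 13580 in oocytes. The part of these lists in the changes of Mediator genes was not tested.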

How the data were processed

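Single cells were amplified as whole transcriptomes and hybridised to arrays. Per the labels' protocols, oligo-dT beads caught the mRNA of 1 cell, cDNA was primed with oligo-dT and random octamers, given a poly-G tail and amplified with a single PCR primer. The labels name a digoxigenin sample and a biotin reference, while the sources used here do not say which channel the values hold. The deposited scores ran from 0 to 4.57. Per the submitters' processing notes limma was used, with no version named. Their scale was read from 79 midpoints left by tied probes, which followed the double natural logarithm of intensity over a factor of 0.225. The largest residual was 0.0232, against fitted values of 1.12 to 2.68, and simulated arrays of 40000 probes were recovered within 0.074 log2 units. An offset added before the log cannot be told apart, and saturation was not assessed.

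The platform annotation gave 1 symbol to 32664 of 41174 probes, several to 45 and none to 8465, and RefSeq (GRCm38.p6) matched 32524 and changed 0 symbols. No pair of arrays was a copy, with the smallest mean difference 0.463. All 24 arrays entered 1 fit of 7 group means (limma 3.58.1, R 4.3.3, eBayes with trend), with 9 two-sided or F-tests, each adjusted over 19532 genes. On simulated data with that many genes, the 10 h against 0 h step called 5.8% of genes changed by 1 log2 unit, 26.4% at 2 units and 74.6% at 4 units. The late against early step called 17.4%, 51.4% and 94.9%. Each simulated gene had the same spread in oocytes and embryos, and changed genes were drawn only from the brighter ones. All cells of a changed group were shifted by the same amount. The shares thus cannot be carried over to dim members, or to members whose embryos spread more than the oocytes. A fold given as at least was set against the lowest level above the threshold.

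The members, lists and tests were chosen with earlier results of these data known. Values by cell or group were given for members called in a test, for the 2 members of each module with the smallest F-test p, and for paralog pairs, 16 genes in all. Med8, Med20, Med22, Med31 and the remaining members were given further values after their values were seen. The number of arrays limits the precision.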

Additional observations from a re-analysis of the deposited data

Results flagged for a closer look

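In groups of 4 embryos, a single cell far from the other 3 was looked for in each of the 33 members, which made 99 groups at 4 h, 10 h and 12 h. In 6 of them the gap to the nearest other cell exceeded Dixon's 95% limit, and chance alone passes about 1 in 20 groups. For Med11, 10 h embryo b stood at 8.77 while the others were at 6.86 to 6.90. Med11 also had 12 h embryo a at 10.40, while the others were at 6.95 to 7.34. For Med13, 12 h embryo c was at 8.02 and the others at 11.79 to 12.35. For Med16, 4 h embryo b was at 9.11 and the others at 7.18 to 7.21. For Med22, 12 h embryo b was at 12.57 and the others at 13.77 to 13.96. For Med24, 12 h embryo d was at 8.55 and the others at 6.88 to 7.07.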

How the results depend on the processing

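Over 35 alternatives, 2 of them added after seeing the data, 282 of 314 counts of members called stayed as first given and none of the changes of called members turned direction. The first count was 0 in every test but 10 h against 0 h, so most of these were counts of 0 that stayed 0. At 10 h most alternatives moved the count. At 10 h the count of 1 member became 0 with the deposited scores, with robust variance estimation, with a replicate block and with every probe tested, and 2 with array weights and with only the groups compared. Leaving out single cells gave 0 to 1 at 10 h and 0 to 1 at 12 h. At 12 h the count of 0 became 1, Med11, with array weights, with the upper 60% of genes, and without the 4 coarsest arrays (those with the fewest distinct values), and without 2 h embryo b or d, 6 h embryo b or 12 h embryo a (adjusted p 0.0269 to 0.0468). Array weights gave 4 members over all embryo times, Med10, Med11, Med20 and Med27, and 1, Med11, in the F-test. Under these weights 899 of 19532 genes were called at 10 h and 1171 over all embryo times. The causes were not tested. Med11 at 10 h was lost in 21 of 35 alternatives, its change lying between -5.54 and -4.77 on the log2 scale and its adjusted p between 0.00332 and 0.182; on the deposited scores, another scale, it was -2.36 units. Deviations of same-letter cells correlated at -0.126 to 0.176, with 5 of 62 pairs over 0.1. Those of cells with different letters correlated at -0.244 to 0.185, with 9 of 184 over 0.1. Such weak correlations cannot settle whether a letter marks cells handled together. The replicate block moved Med11 at 10 h to -4.77 (adjusted p = 0.0772). The sign was kept in 8419 of 8696 changes recomputed for all members. Many of these could not change sign, because the alternative altered only the error or left out a cell of a group not compared. Neither this count nor the unturned directions of called members thus shows how stable the directions are. Dim probes, Med16 and Med29 above all, limit what can be seen.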
